A study of Mus musculus with 6 samples.

Results

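The AP-1 family was examined in activated splenic B cells of mice with and without AhR, the aryl hydrocarbon receptor, which acts on transcription once a small ligand binds it. The 10 genes were chosen by their symbols, from the FOS, JUN, BATF and ATF3 branches of the family, out of 23420 genes in the count table. They were *Fos*, *Fosb*, *Fosl1* and *Fosl2*, then *Jun*, *Junb* and *Jund*, then *Batf* and *Batf3*, and *Atf3*. The rule used symbols only, but the family and the gene lists below were picked with earlier results of these data known. All 10 genes had enough counts to be tested.

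The libraries came from 3 *Ahr*+/+ and 3 *Ahr*-/- mice on the C57Bl/6J background. *Ahr*-/- mice carry the targeted allele in the germline, so every cell of the animal has it and not B cells alone. Splenic B cells of both genotypes were kept for 8 h in IMDM with 5% FCS, 10 μg/ml anti-IgM, which engages the B cell receptor, and 20 ng/ml IL-4. The AhR ligand FICZ was added at 250 nM for the last 4 h. All 6 libraries therefore share anti-IgM, IL-4 and FICZ, and resting cells or cells without FICZ are not analysed here. The labels number the 3 libraries of a genotype but do not give the age or sex of the mice.

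AP-1 factors are basic leucine zipper (bZIP) proteins that bind DNA as pairs. FOS proteins need a JUN partner, whereas JUN proteins can also pair with each other. Receptor signals that reach the MAP kinases raise the transcription of many of these genes within minutes to hours, and the B cell receptor is one such signal. BATF and BATF3 lack a transactivating region, pair with JUN proteins and bind next to IRF4 or IRF8, and BATF is required in B cells for class switching.

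Total counts per library were between 22095096 and 53648787, with the lowest and the highest both among the *Ahr*-/- libraries. A floor of 3 counts corresponds to between 0.0555 and 0.134 CPM, a count relative to its library size, which covers counting error only. Values below are normalized counts, that is, counts divided by the library size after TMM scaling and brought to a common size, so they compare 1 gene between mice and not 2 genes with each other. The AhR target *Cyp1a1* checks the genotypes, with 5246 ± 242 normalized counts in *Ahr*+/+ and 5.36 ± 2.20 in *Ahr*-/- mice (SD, n = 3). *Ahr* itself fell from 13175 ± 682 to 9174 ± 472, so reads over this gene remained in *Ahr*-/- cells. Over the 13682 genes tested, the median log2 fold change was 0.00 and the median absolute log2 fold change was 0.11.

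*Junb* was the family member with the largest loss, and all FOS genes and *Atf3* were lower in *Ahr*-/- B cells, while *Jund* and *Batf* were higher. In all, 8 of the 10 genes passed an adjusted p-value of 0.05 in edgeR's quasi-likelihood test (Benjamini-Hochberg over all tested genes), against 17.9% of all tested genes. Of the 10, 6 were lower in *Ahr*-/- B cells, against 8.13% of all tested genes, and 2 were higher, against 9.79%. Among all 2453 genes called, 1113 were lower and 1340 higher. The family was picked with earlier results of these data known, so these shares describe it and do not test it. The genotypes did not overlap for the same 8 genes, against 33.5% of all tested genes. The median absolute log2 fold change of the 10 genes was 0.46. *Jun* and *Batf3* did not pass the threshold.

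The promoters of these genes were read from RefSeq on GRCm38.p6, from 250 bases before to 50 bases after the start, and 9 of the 10 genes matched an entry, *Fosl1* being the one without. GCGTG, the core letters of the element that AhR binds together with ARNT, was searched on both strands. It was present in the *Fos*, *Fosb*, *Junb* and *Atf3* windows and in none of the other 5, against 32.4% of 32851 promoters. The *Fosb* match lies just after the start, at bases 32 to 36 of the transcribed part. The longer form TNGCGTG, which contains that core, was in no member's window, against 5.07% of promoters. The sequences shown here are the upstream core matches in the 3 genes that have them and fell, on the coding strand of each gene, with the core in capitals (CACGC is GCGTG read on the other strand).
Fos, 229 to 225 bases upstream, chr12:85473650-85473676: ccgaaatcctaCACGCggaaggtctag
Junb, 123 to 119 bases upstream, chr8:84978856-84978882: gtttacaaggaCACGCgcttcctgaca
Junb, 79 to 75 bases upstream, chr8:84978812-84978838: ctccccttcccCACGCtctaggagggg
Atf3, 155 to 151 bases upstream, chr1:191183473-191183499: gtgtgtcccggGCGTGcgaggaacgca
*Fos* and *Batf* are on the plus strand of chromosome 12 and *Junb* and *Atf3* on the minus strands of chromosomes 8 and 1. *Atf3* has a second core match, 247 to 243 bases upstream. A match is a run of letters and not a measured binding site, and these libraries hold no binding data.

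TGACG, the shorter site of the cAMP response element through which CREB and ATF factors act, was searched on both strands and is contained in the full element TGACGTCA. It was found in 5 of the 9 windows, against 20.8% of promoters. It lay in *Fos*, *Fosb*, *Junb* and *Atf3*, which fell, and in *Batf*, which rose. It is shown in capitals for the 2 genes with opposite change.
Junb, 106 to 102 bases upstream, chr8:84978839-84978865: cttcctgacagTGACGcgagccgcctc
Batf, 98 to 94 bases upstream, chr12:85686611-85686637: ttctaacttgtTGACGtttccgcccat
The *Junb* match lies between that gene's core matches. The full AP-1 site TGACTCA was in no member's window (5.2% of promoters), nor was TGACGTCA (1.79%) or the serum response CArG box (1.63%). No match says only that these letters are absent from the window searched. The RefSeq start equals the GENCODE gene start for *Fos* and *Jun*. It lies 30 bases upstream of it for *Junb* and 1210 bases for *Jund*, and inside the gene by 6 bases for *Fosb*, 51 for *Batf*, 567 for *Batf3*, 671 for *Fosl2* and 34706 for *Atf3*, so the windows are those of the RefSeq starts.

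*Junb* encodes a JUN protein that pairs with FOS and BATF proteins and in B cells is induced by receptor stimulation. It lies on chromosome 8 from 84974484 to 84978718 of GRCm38. *Junb* had 6977, 7156 and 6729 normalized counts in *Ahr*+/+ mice and 3002, 3074 and 3291 in *Ahr*-/- mice. The genotypes were far apart, and the mice within each were close together. The means were 6954 ± 214 and 3122 ± 150.3 (SD, n = 3 mice), a loss of 55.1%. The log2 fold change was −1.15 (edgeR, standard error, SE, 0.045, 95% confidence interval −1.25 to −1.06, adjusted p = 2.6e-09). *Junb* ranked 33 of 13682 by p-value. By size of fold change it ranked 733, behind many low genes, but among the 6213 genes whose mean reached 1000 normalized counts it ranked 35. *Junb* overlaps *Prdx2* on the other strand, and the sources used here do not give the strand setting of the counting. *Prdx2* had 3421 ± 37.7 and 3555 ± 124 normalized counts, with a log2 fold change of 0.05 (adjusted p = 0.40 from edgeR).

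*Jund* (chromosome 8, 70698949 to 70700616) encodes the JUN protein that is made steadily in most cells and is known to restrain proliferation. It had 7419, 8112 and 7717 normalized counts in *Ahr*+/+ mice and 9289, 9032 and 9694 in *Ahr*-/- mice. Every *Ahr*-/- mouse was above every *Ahr*+/+ mouse. *Jund* rose by 20.5%, from 7749 ± 348 to 9338 ± 334 (SD, n = 3 mice), a log2 fold change of 0.27 (edgeR, SE 0.043, adjusted p = 7.6e-04). *Junb* and *Jund* are both on chromosome 8 and changed in opposite directions.

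*Jun* (chromosome 4, 95049034 to 95052222), the founding member, had 227, 248 and 223 normalized counts in *Ahr*+/+ mice and 275, 293 and 218 in *Ahr*-/- mice. The *Ahr*-/- mice spanned a wide range, and the lowest of them was below all *Ahr*+/+ mice. The log2 fold change of *Jun* was 0.17 (95% confidence interval −0.09 to 0.42, adjusted p = 0.38 from edgeR). That interval lies wholly above the interval of *Junb*, so a loss of *Jun* of the size seen in *Junb* lies outside it. Without *Ahr*-/- replicate 2 the log2 fold change of *Jun* was 0.06, and without *Ahr*-/- replicate 3 it was 0.29 (adjusted p = 0.063 from edgeR).

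**Figure D1:**
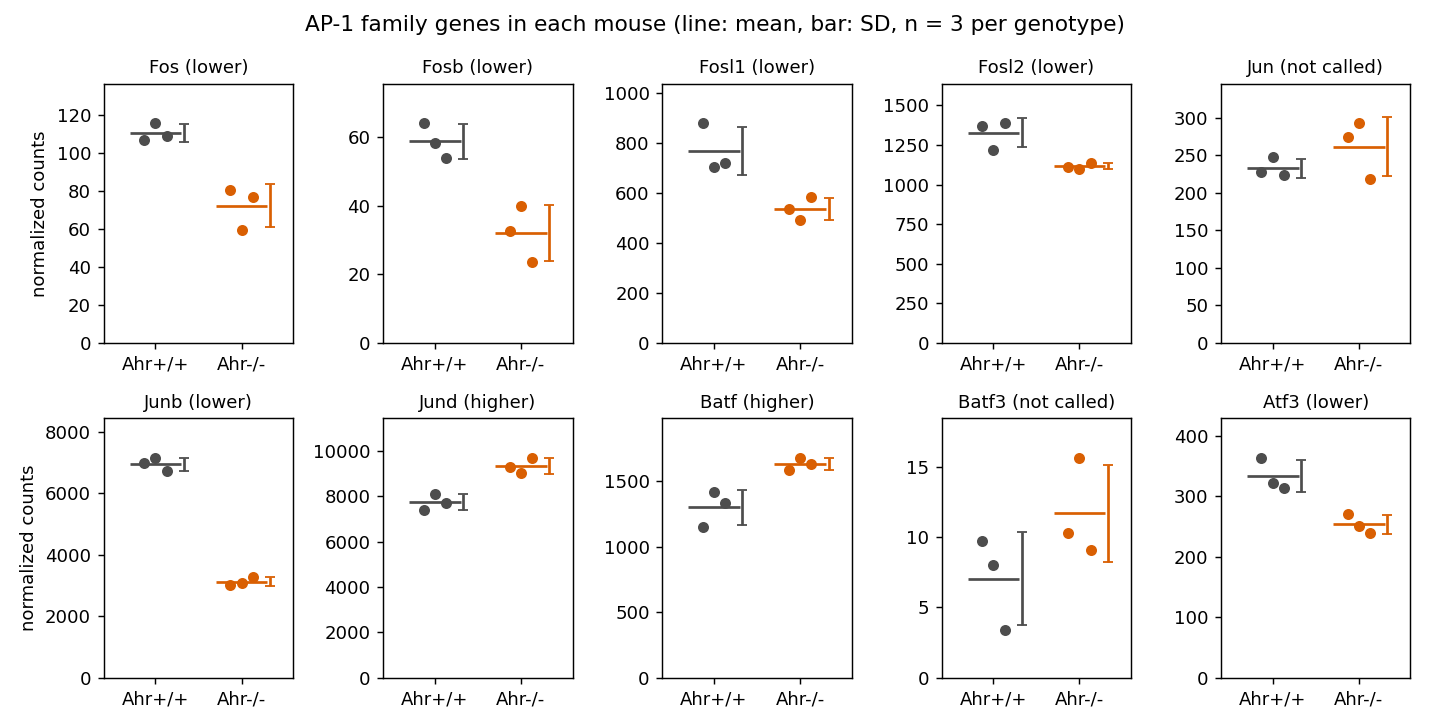
Normalized counts (vertical axes, each starting at 0) of the 10 AP-1 genes in each of the 6 libraries, with 1 point per mouse, a line at the mean and a bar for the SD. The *Junb* points of *Ahr*-/- mice lie between 3002 and 3291, below all *Ahr*+/+ points, whereas the points of *Jun* and *Batf3* overlap between genotypes.

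All 4 FOS genes fell in *Ahr*-/- B cells. *Fos* (chromosome 12, 85473890 to 85477273), the classical immediate-early gene, had 107, 116 and 109 normalized counts in *Ahr*+/+ mice and 80.7, 59.7 and 76.6 in *Ahr*-/- mice. The groups did not overlap, and the *Ahr*-/- mice were more spread. It fell by 34.5%, with a log2 fold change of −0.64 (edgeR, SE 0.16, adjusted p = 0.013). At 8 h this gene rested on few reads, between 47 and 115 counts per library, and without *Ahr*-/- replicate 2 its adjusted p was 0.080 and its log2 fold change −0.50.

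*Fosb* (chromosome 7, 19302696 to 19310051), a close relative of *Fos* that is also induced and lost quickly, was the lowest-counted FOS gene, with 19 to 66 reads per library. It had 64.1, 58.4 and 53.9 normalized counts in *Ahr*+/+ mice and 32.6, 39.8 and 23.7 in *Ahr*-/- mice. Again no *Ahr*-/- mouse reached the lowest *Ahr*+/+ mouse. The mean fell by 45.5%, a log2 fold change of −0.86 (edgeR, SE 0.22, adjusted p = 0.017). Without *Ahr*+/+ replicate 1 the edgeR adjusted p was 0.059, and without *Ahr*-/- replicate 3 it was 0.0501, with log2 fold changes of −0.79 and −0.66.

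*Fosl1* and *Fosl2* encode FRA-1 and FRA-2, which lack the transactivating region of FOS and tend to appear later after stimulation. *Fosl1* (chromosome 19, 5447547 to 5455946) had 879, 705 and 719.9 normalized counts in *Ahr*+/+ mice and 534, 492 and 582 in *Ahr*-/- mice. The highest value was that of *Ahr*+/+ replicate 1, and the groups did not overlap. *Fosl1* fell by 30.2%, with a log2 fold change of −0.52 (edgeR, SE 0.091, adjusted p = 0.0014). It overlaps *Ccdc85b* on the other strand, which had 566 ± 30.3 and 597 ± 50.8 normalized counts (SD, n = 3 mice; edgeR adjusted p = 0.62).

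*Fosl2* (chromosome 5, 32135801 to 32157842) had 1373, 1221 and 1388 normalized counts in *Ahr*+/+ mice and 1112, 1099.7 and 1139.7 in *Ahr*-/- mice. The *Ahr*-/- mice were tightly grouped just under the lowest *Ahr*+/+ mouse. The loss was 15.9%, a log2 fold change of −0.25 (edgeR, SE 0.055, adjusted p = 0.0074), the smallest among the 4 FOS genes.

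*Atf3* (chromosome 1, 191170296 to 191218039), a bZIP factor of the stress response that pairs with JUN proteins, was lower as well. It had 363, 322 and 313 normalized counts in *Ahr*+/+ mice and 271, 250.2 and 239.8 in *Ahr*-/- mice. The groups did not overlap. *Atf3* fell by 23.8%, with a log2 fold change of −0.40 (edgeR, SE 0.091, adjusted p = 0.0083).

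*Batf* (chromosome 12, 85686669 to 85709087) went the other way. It had 1154, 1417 and 1334 normalized counts in *Ahr*+/+ mice and 1588, 1678 and 1631 in *Ahr*-/- mice. All *Ahr*-/- mice were above all *Ahr*+/+ mice, and *Ahr*+/+ replicate 1 was the lowest. *Batf* rose by 25.4%, with a log2 fold change of 0.33 (edgeR, SE 0.065, adjusted p = 0.0033). *Fos* and *Batf* lie on the same chromosome as *Ahr*, at distances of 49.9 and 50.2 Mb, and changed in opposite directions.

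*Batf3* (chromosome 1, 191097847 to 191108945), best known for its role in dendritic cells, was close to the limit of detection, with 3 to 22 reads per library. Its normalized counts were 9.71, 8.05 and 3.37 in *Ahr*+/+ mice and 10.3, 15.6 and 9.12 in *Ahr*-/- mice. One *Ahr*-/- mouse fell within the range of the *Ahr*+/+ mice. The log2 fold change was 0.75, with a 95% confidence interval from −0.20 to 1.69 (adjusted p = 0.28 from edgeR), so neither no change nor a change above 2-fold is outside the interval. When each library was left out in turn, the log2 fold change of *Batf3* lay between 0.41 and 1.05.

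Ordered by log2 fold change, *Junb* was lowest and was followed by *Fosb*, *Fos*, *Fosl1*, *Atf3* and *Fosl2*. The 95% confidence interval of *Junb* overlapped that of *Fosb* (−1.34 to −0.38) but not that of *Fos* (−0.98 to −0.30), *Fosl1* (−0.72 to −0.33), *Atf3* (−0.60 to −0.20) or *Fosl2* (−0.37 to −0.13). The intervals of *Fosb*, *Fos*, *Fosl1* and *Atf3* overlapped each other. Those of *Jund* (0.18 to 0.36) and *Batf* (0.19 to 0.47) overlapped as well. For each of the 8 genes that passed the edgeR threshold, a two-sided exact permutation test gave p = 0.1, the smallest that 3 mice against 3 allow.

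**Figure D2:**
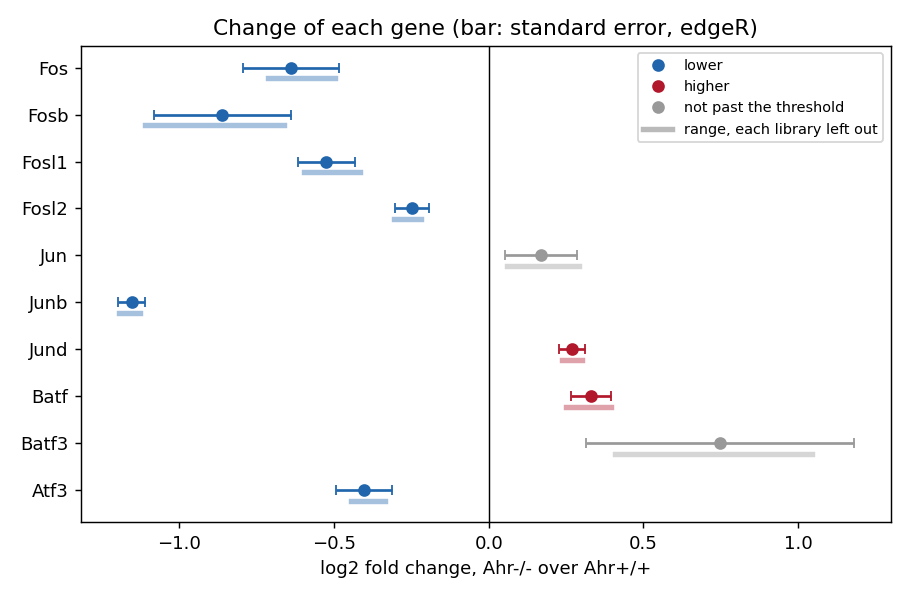
Log2 fold change of each AP-1 gene, *Ahr*-/- over *Ahr*+/+ (horizontal axis), with the standard error derived from the edgeR test as a thin bar and, below it, the range of values when each library was left out in turn. *Junb* stays between −1.20 and −1.13 under these omissions, *Fosb* moves between −1.11 and −0.66, and the ranges of all 10 genes stay on their own side of 0.

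Because *Batf* and *Jund* rose while *Junb* fell, their ratios to *Junb* had to move more than any of these genes did alone. The ratios therefore restate the single-gene values within each library. The 3 ratios were formed after the single-gene values were seen and are ratios of counts, not of molecules or proteins. The ratio of *Batf* to *Junb* counts was 0.165, 0.198 and 0.198 in *Ahr*+/+ mice and 0.529, 0.546 and 0.496 in *Ahr*-/- mice. The genotypes were clearly apart, by 2.80-fold between the means (0.187 ± 0.0189 and 0.523 ± 0.0255, SD, n = 3 mice). For *Jund* to *Junb* the ratio was 1.06, 1.13 and 1.15 in *Ahr*+/+ mice and 3.09, 2.94 and 2.95 in *Ahr*-/- mice, 2.69-fold apart. The ratio of *Fosl2* to *Fosl1* was 1.20-fold higher in *Ahr*-/- mice, from 1.56, 1.73 and 1.93 to 2.08, 2.24 and 1.96, with no overlap but with a narrow gap. A ratio within a library does not depend on its size factor.

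**Figure D3:**
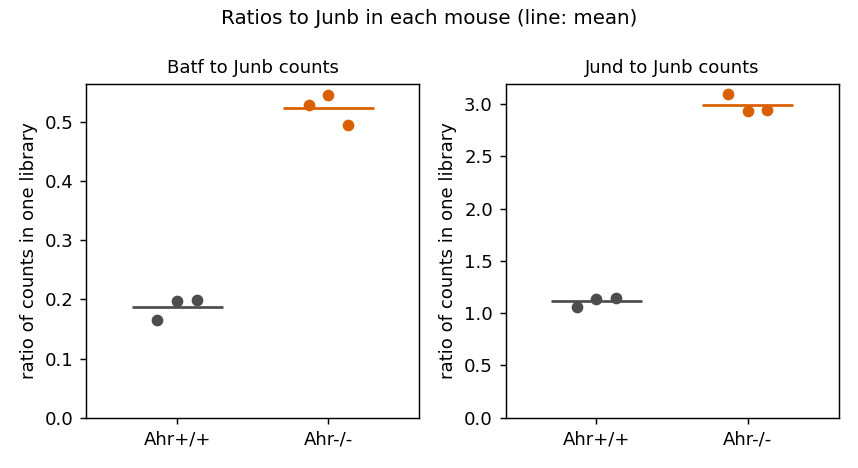
Ratio of *Batf* to *Junb* counts (left) and of *Jund* to *Junb* counts (right) in each library, with 1 point per mouse and a line at the mean. *Ahr*-/- libraries lie between 0.496 and 0.546 on the left and between 2.94 and 3.09 on the right, above all *Ahr*+/+ libraries in both panels.

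Genes with a pattern most like that of *Junb* were ranked by the root-mean-square difference of their centred log2 CPM over the 6 libraries, among 9691 other genes whose mean reached 100 normalized counts. The nearest was *Ptpn6*, which encodes the phosphatase SHP-1, a brake on B cell receptor signals, at a difference of 0.0334. Its level went from 37838 ± 1023 down to 17698 ± 1200.0 (SD, n = 3 mice), a log2 fold change of −1.10. *Fhl3* (0.0414) and *Pmm1* (0.0417) came next. *Rara*, a retinoic acid receptor, was at 0.0599 and *Rbpj*, the DNA-binding partner of Notch, at 0.0617. For comparison, the root-mean-square of *Junb*'s own values around a flat line was 0.577. With 3 mice per genotype this measure mostly reflects a loss of like size.

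Genes that act before AP-1 were examined next. Of 15 kinases that activate AP-1, 3 rose, 1 fell and 11 did not pass the edgeR threshold, with a median log2 fold change of −0.01. The share called was 26.7%, against 17.9% of all tested genes. *Mapk3*, which encodes ERK1, rose by 0.22 on the log2 scale (adjusted p = 0.0034, edgeR), and *Rps6ka1*, an ERK-activated kinase, by 0.19 (adjusted p = 0.0058, edgeR). *Map2k6*, a p38-activating kinase, had a larger change of 1.29 but few counts, from 15.7 ± 4.78 to 38.0 ± 8.25 (adjusted p = 0.0083, and 0.059 without *Ahr*-/- replicate 2, both from edgeR). *Map2k3* fell by 0.14 (adjusted p = 0.036 from edgeR, lost in 6 of 14 alternatives). Among 11 factors that bind the *Fos* and *Jun* promoters, 1 (9.09%) passed the test and rose, *Elk1* (log2 fold change 0.21, edgeR adjusted p = 0.046, lost in 7 of 14 alternatives). *Srf*, the serum response factor, had a log2 fold change of −0.03 (adjusted p = 0.70 from edgeR) and was picked for mention after its value was seen, as were *Bach2*, *Btg2*, *Klf6*, *Egr1*, *Egr2*, *Nr4a1* and *Myc*. The range of summed counts of the 15 kinases was 51791 to 52141 in *Ahr*+/+ and 51450 to 52037 in *Ahr*-/- libraries, which overlap.

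Other bZIP factors were called about as often as genes in general. Of 31 other bZIP genes tested, 4 rose, 2 fell and 25 did not pass the edgeR threshold, or 19.4% called against 17.9% of all tested genes, with a median log2 fold change of −0.02. *Jdp2*, whose product pairs with JUN proteins and represses AP-1 sites, had 51.5, 84.5 and 76.4 normalized counts in *Ahr*+/+ mice and 213, 175 and 163 in *Ahr*-/- mice. The genotypes did not overlap, and the log2 fold change was 1.36 (edgeR, SE 0.18, adjusted p = 1.6e-04). *Nfe2l2*, which encodes the oxidative stress factor NRF2, fell from 2914 ± 52.8 to 2054 ± 42.9 (log2 fold change −0.50, adjusted p = 1.2e-06 from edgeR). *Xbp1*, needed for plasma cell secretion, rose by 0.25 and *Tef* by 0.22 on the log2 scale. *Bach2*, a repressor of plasma cell fate that competes at AP-1-like sites, had a log2 fold change of −0.15 (adjusted p = 0.073 from edgeR, and under 0.05 in 4 of 14 alternatives). Of 6 genes for parts of ubiquitin ligases that act on JUN proteins, 1 rose (*Fbxw7*, 0.23) and 1 fell (*Itch*, −0.12, adjusted p = 0.039 from edgeR, lost in 7 of 14 alternatives), or 33.3% called against 17.9% of all tested genes.

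Known AP-1 target genes that passed the test were all higher in *Ahr*-/- B cells. Of 11 tested, 5 rose, none fell and 6 did not pass the edgeR threshold, and the median log2 fold change was 0.71. That is 45.5% of the list called, against 17.9% of all tested genes, of which 9.79% were higher. *Mmp3* had no counts in any library. *Cd44*, the hyaluronan receptor, went from 12847 ± 984 up to 23903 ± 633 (log2 fold change 0.90, adjusted p = 8.0e-08 from edgeR). *Plau*, which encodes urokinase, rose from 867 ± 11.3 to 1466 ± 132 (0.75, adjusted p = 3.0e-06 from edgeR), and its receptor was the remaining gene that rose. *Ccnd1*, cyclin D1, rose from 34.7 ± 5.14 to 93.0 ± 13.5 (1.40, adjusted p = 2.2e-04 from edgeR). *Mmp13*, a collagenase, had 54.4, 87.5 and 31.4 normalized counts in *Ahr*+/+ mice and 379, 251 and 131 in *Ahr*-/- mice, with no overlap but a wide spread (2.07, adjusted p = 0.0016, and 0.094 in edgeR's robust fit). *Cd44* supplies most of the reads of this list. The part of cells other than B cells in these rises was not tested.

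Of 5 genes tied to BATF and IRF factors, 2 rose, 2 fell and 1 did not pass the edgeR threshold, so 4 of 5 were called against 17.9% of all tested genes (9.79% higher, 8.13% lower). The IRF partners rose, *Irf4* from 17265 ± 1163 to 20951 ± 1412 (log2 fold change 0.28, adjusted p = 0.0033 from edgeR) and *Irf8* by 0.34. The genes that fell were targets. *Prdm1*, the plasma cell regulator BLIMP-1, fell from 215 ± 30.5 to 138 ± 16.6 (−0.64), and *Ctla4*, an inhibitory receptor, from 113 ± 27.5 to 42.1 ± 18.5 (−1.33). Thus *Batf*, *Irf4* and *Irf8* were higher in the same libraries in which *Junb*, *Prdm1* and *Ctla4* were lower. The part of other cells, such as T cells, in the values of *Ctla4* was not tested.

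Immediate-early genes outside the family were called mostly in the lower direction. Of 16 tested, 6 fell, 1 rose and 9 did not pass the edgeR threshold, with a median log2 fold change of −0.16. In all tested genes 8.13% fell and 9.79% rose, and 43.8% of this list was called against 17.9%. *Nr4a2* (469 ± 52.5 to 277 ± 9.03, log2 fold change −0.75), *Egr3* (5974 ± 318 to 3748 ± 384, −0.67), *Nr4a3* (2364 ± 121 to 1548 ± 40.4, −0.61) and *Egr2* (20556 ± 329 to 14650.0 ± 1353, −0.49) all fell, and the largest of their edgeR adjusted p-values was 7.5e-05. These encode nuclear receptors and zinc finger factors that the B cell receptor induces. *Ier3* fell by 1.15 on the log2 scale (adjusted p = 0.017, and 0.069 and 0.072 without *Ahr*+/+ replicates 2 and 3, all from edgeR). *Btg2* was lower (−0.25) and *Klf6* higher (0.23). *Nr4a1* (−0.06, adjusted p = 0.45) and *Myc* (0.08, adjusted p = 0.13) did not pass the edgeR threshold, but *Myc* did with library size alone (0.10, adjusted p = 0.040). *Egr1* (−0.25, adjusted p = 0.060 from edgeR) passed it in 3 of 14 alternatives, with an adjusted p of 7.0e-05 without *Ahr*-/- replicate 3.

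**Figure D4:**
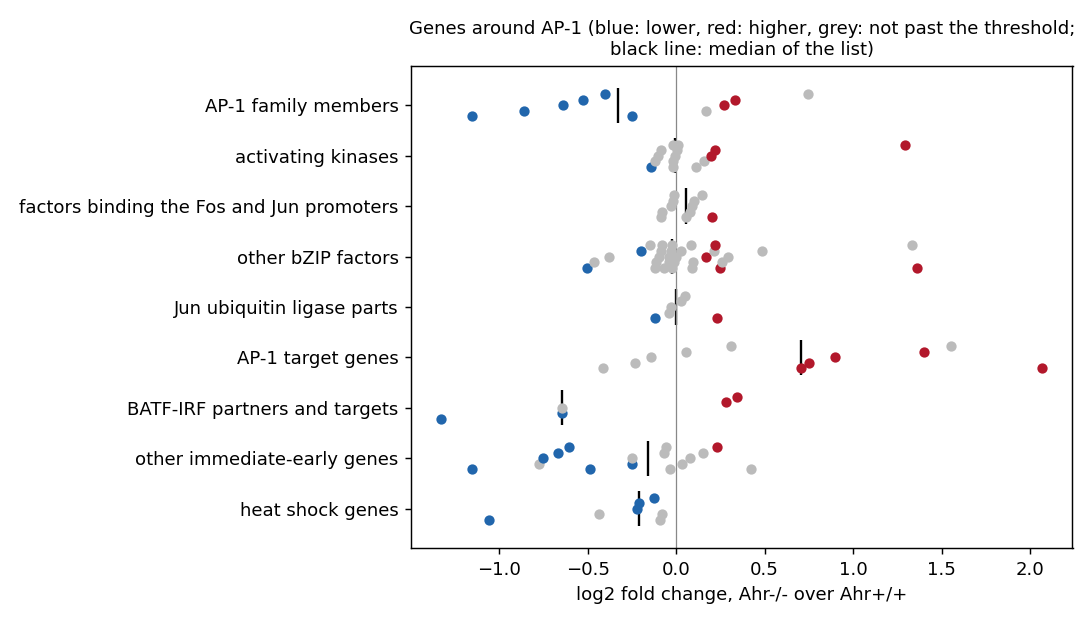
Log2 fold change (*Ahr*-/- over *Ahr*+/+, horizontal axis) of every tested gene in the AP-1 family and in 8 lists of related genes, with 1 point per gene, a black line at the median of the list and colour for genes that passed the edgeR threshold in either direction. The family's median is −0.33 and that of the AP-1 target genes 0.71, while the medians of kinases, promoter-binding factors and other bZIP genes lie between −0.02 and 0.06.

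Heat shock genes, which rise with handling stress, were examined because *Fos*, *Jun* and *Atf3* also respond to it. Of 7 tested, 4 fell, none rose and 3 did not pass the edgeR threshold, with a median of −0.21, or 57.1% called against 17.9% of all tested genes, of which 8.13% fell. *Hspa1b* fell from 57.3 ± 11.9 to 28.0 ± 4.46 normalized counts (log2 fold change −1.06, adjusted p = 0.0064 from edgeR), and *Dnajb1* (−0.22) and *Hsp90aa1* (−0.21) fell less. *Hsph1* fell by 0.13 (adjusted p = 0.031 from edgeR, lost in 5 of 14 alternatives). The part of this shift in the values of *Fos* and *Atf3* was not tested.

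Markers of B cells and of other spleen cells were compared, since in bulk samples fewer cells of a type and less RNA per cell cannot be told apart. The summed B cell markers were 85400.0 to 89436 normalized counts in *Ahr*+/+ and 98322 to 103128 in *Ahr*-/- libraries, with 4 of 8 higher and 1 lower. The counts of called markers in this paragraph stand against 17.9% of all tested genes called, 9.79% higher and 8.13% lower. The T cell sums, nearly all *Lck*, were 6019 to 6399 and 6088 to 7044. Without *Lck* they were 189 to 291 and 251 to 307, with *Cd5* higher (54.1 ± 12.2 and 135 ± 25.0) and *Cd3e* lower (33.9 ± 9.88 and 14.1 ± 0.708) among 7 markers tested. The sums overlapped for NK cells (284 to 363 and 336 to 527, 2 of 6 higher) and neutrophils (123 to 371 and 146 to 540.3, 0 of 5). The macrophage and monocyte sums were 1256 to 1638 and 726 to 1268, with *Cd14* higher (lost in 4 of 14 alternatives) and *Adgre1* lower of 8 tested. *Adgre1* alone fell from 649.7 ± 14.7 to 54.1 ± 16.1, whereas the median log2 fold change of the list was 0.65. Erythroid (0 of 3) and platelet markers (0 of 4) had no call, and *Hba-a1* and *Hbb-b1* had no counts in any library.

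Dendritic cell markers were counted in the same way, against 9.79% of all tested genes higher and 8.13% lower. For plasmacytoid dendritic cells, 6 of 8 markers were higher and 1 was lower, with a median log2 fold change of 0.99. The lower one was *Tcf4*, which B cells also express and which had the most counts of the list in each library (sums of 10725 to 11603 in *Ahr*+/+ and 9391 to 10056 in *Ahr*-/- libraries). Without it the sums were 3516 to 4070 and 4567 to 5636. *Siglech* rose from 56.8 ± 4.19 to 269.7 ± 32.3 (SD, n = 3 mice; edgeR adjusted p = 2.1e-07). For conventional type 2 cells, 4 of 5 were higher, with sums of 1259 to 1632 and 1887 to 2108, most of them from *Sirpa*. Without *Sirpa* they were 128 to 225 and 359 to 495. For conventional type 1 cells, which depend on BATF3, 3 of 8 were higher and 5 did not pass the threshold, with sums of 11633 to 12518 and 13789 to 14759, nearly all from *Wdfy4*. Without *Wdfy4* they were 333 to 390 and 398 to 471. *Clec9a* had 5.87 ± 0.855 in *Ahr*+/+ and 20.7 ± 6.74 normalized counts in *Ahr*-/- mice (SD, n = 3; edgeR adjusted p = 0.0043), whereas *Xcr1* had 18.3 ± 1.70 and 16.0 ± 4.09 (adjusted p = 0.62 from edgeR). The marker genes named and those left out of the sums were picked after their values were seen. Whether the reads of *Lck*, *Cd5* and *Wdfy4* came from B cells was not tested. The part of such cells in the values of *Batf3*, *Batf*, the genes that fell and the AP-1 target genes that rose was not tested.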

How the data were processed

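RNA was measured in B cell cultures of 3 *Ahr*+/+ and 3 *Ahr*-/- mice from TruSeq stranded mRNA libraries. The authors deposited whole-number read counts per gene symbol, not normalized; the submitters' processing notes name TopHat2, HTSeq, DESeq and mm10, and do not say whether strand was used in counting. A table of normalized counts and one of the authors' own fold changes and p-values were not used. Genes with at least 10 counts in total over the 6 libraries were kept. Counts were scaled by TMM and compared with edgeR 4.0.16 (quasi-likelihood test, prior count 0.125, R 4.3.3), with p-values adjusted by Benjamini-Hochberg over all tested genes and called under 0.05. No label says that the 3 libraries of a genotype came from separate cultures beyond their numbering, so p-values measure the spread between these samples. Replicates differed by more than sampling noise (chi-square per degree of freedom 3.96 to 9.24), so none was treated as a duplicate. Gene positions came from GENCODE on GRCm38 and promoters from RefSeq on GRCm38.p6. Counts were not divided by gene length, so sums and ratios over different genes describe reads, not levels per gene.

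The members and all gene lists were chosen with earlier results of these data known. Genes named from a list are the called ones, up to 4, that changed most in either direction, others being marked in the text. One gene of a list is not reported here. Alternatives were other size factors, filters, DESeq2 1.42.0, a robust fit, a replicate block, a prior count of 2, a threshold of 0.01 and leaving out each library.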

Additional observations from a re-analysis of the deposited data

How the results depend on the processing

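*Junb*, *Jund*, *Batf*, *Fosl1*, *Fosl2* and *Atf3* kept direction and call in all 14 alternatives, and *Jun* and *Batf3* passed the threshold in none. The number of AP-1 genes called was 8 in every alternative at 0.05 with all libraries, between 7 and 8 when each library was left out, and 6 at an adjusted p-value under 0.01, where *Fos* and *Fosb* dropped out. Over all tested genes, the calls fell from 2453 to 1473 at 0.01, with 783 higher and 690 lower, and lay between 1664 and 2601 when each library was left out. For 55 genes named outside the family, 729 of 770 alternatives kept the direction and side of the threshold, 33 lost the call, 8 gained it and none reversed. Same-numbered libraries of the genotypes did not deviate together (correlations of −0.14, 0.25 and −0.19 over 9692 genes), nor did every library correlate best with its own number. With the replicate block, 2303 genes and 8 AP-1 genes were called. Depth limits *Batf3*, *Fosb* and *Fos* most, since each rested on few reads. The strand setting of the counting is not given in the sources used here, which touches *Junb* and *Fosl1*, whose opposite-strand neighbours were counted. *Jun*, *Jund* and *Atf3* overlap *Junos*, *Gm11175* and *Gm24748* on the other strand, and these are not in the count table. Any part of their reads in the values of *Jun*, *Jund* and *Atf3* could therefore not be checked. A single time point after stimulation was measured.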
